A study of Rattus norvegicus with 50 samples.

Results

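Saa3, Lcn2, Hp, Orm1 and Cp are genes of the acute-phase response, here measured in the lungs of rats that had inhaled nickel subsulfide (Ni3S2), a poorly soluble nickel compound. These 5 genes, of 13438 genes measured, were chosen by name with earlier results of the same data in view. Each was read by its probe set that carries 1 gene symbol and has the highest mean over all 50 arrays (a probe set is the group of short probes on an array that reads 1 transcript). Saa3, Lcn2, Hp and Orm1 had 1 such probe set each and Cp had 3. All 5 genes had a value on all 50 arrays, and no filter on low values was applied.

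Male Fischer F344 rats, 7 to 8 weeks old on receipt, breathed Ni3S2 aerosol at 0.04, 0.08, 0.15 or 0.60 mg/m3, or air without it (controls, 0 mg/m3). A day of exposure lasted 6 hours, with 5 such days per week. The exposure lasted 4 weeks (20 exposure days) or 1 week (5 exposure days), which gave 10 groups of 13 animals each. RNA came from tissue microdissected from the distal airways and alveoli of the right caudal lobe of 8 animals per group, and the 5 samples with the best RNA were put on Affymetrix arrays, 1 animal per array. All rats were intact animals of 1 inbred strain, and the labels name no genetic change, drug or other agent. The values are log2 intensities, on which a difference of 1 is a doubling of the signal. With 5 arrays in a group, that number sets the precision of every mean below.

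The acute-phase response is the change in secreted proteins that follows infection or injury. Interleukin 6 acts through the transcription factor STAT3, interleukin 1 and tumour necrosis factor act through NF-kB, and C/EBP factors take part in both arms. The liver is the main source of these proteins in blood, and airway and alveolar epithelium, macrophages and neutrophils make some of them locally. Saa3 encodes a serum amyloid A that, in mice, is made mainly outside the liver, by macrophages and epithelium among others. Lcn2 encodes lipocalin 2, which binds bacterial siderophores and so keeps iron from bacteria. Hp encodes haptoglobin, which binds free haemoglobin. Orm1 encodes orosomucoid 1, a plasma carrier of small molecules. Cp encodes ceruloplasmin, a copper protein that oxidises iron.

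The RefSeq (GRCr8) sequences available here covered the start of 4 of the 5 genes, from 250 bases before to 50 bases after it. A sequence for Hp was not among them. The sequences of Saa3 and Lcn2 are shown whole, because these 2 genes changed most among the 5. Capitals mark matches to 3 motifs searched on both strands: a C/EBP motif (TTGCNNAA), an NF-kB motif (GGGNNNNNCC) and a STAT motif (TTCNNNGAA). The letters of the motifs were set after these sequences had been seen. Saa3 lies at chr1:106358381-106358680, minus strand, and Lcn2 at chr3:36081731-36082030, minus strand.
Saa3: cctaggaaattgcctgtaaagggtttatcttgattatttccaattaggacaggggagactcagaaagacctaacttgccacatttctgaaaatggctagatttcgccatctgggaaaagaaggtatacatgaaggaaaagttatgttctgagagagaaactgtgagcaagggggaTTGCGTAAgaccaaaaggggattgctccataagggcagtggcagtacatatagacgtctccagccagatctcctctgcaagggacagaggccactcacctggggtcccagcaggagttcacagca
Lcn2: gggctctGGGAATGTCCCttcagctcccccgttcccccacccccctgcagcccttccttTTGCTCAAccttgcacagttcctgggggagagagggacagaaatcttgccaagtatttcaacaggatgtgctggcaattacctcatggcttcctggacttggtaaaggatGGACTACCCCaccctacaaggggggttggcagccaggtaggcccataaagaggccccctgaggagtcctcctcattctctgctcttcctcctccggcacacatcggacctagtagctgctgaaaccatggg
The Saa3 sequence held 1 match, the C/EBP match TTGCGTAA, whose first base was 75 bases before the start. The Lcn2 sequence held the C/EBP match TTGCTCAA, 191 bases before the start, and 2 places with NF-kB matches. In the farther of these, GGGAATGTCC on the gene's strand, 243 bases before the start, overlapped its reverse-strand match by all but 1 base. The nearer, GGACTACCCC, was on the reverse strand, 81 bases before the start.

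Short windows around the C/EBP matches of Orm1 and Cp, in capitals, show the same 8 letters, both on the reverse strand. Orm1 lies at chr5:81788259-81788558, plus strand, with its match 123 bases before the start. Cp lies at chr2:104368420-104368719, plus strand, with its match 72 bases before the start.
Orm1: agggaacattTTGTGCAAgacatttccc
Cp: ttatttactcTTGTGCAAcattaaattg
Orm1 also held an overlapping pair of NF-kB matches, GGGAACAGCC, 161 bases before the start, and its reverse-strand partner. The C/EBP motif was in 10.6% of 33469 RefSeq promoters of this length, the NF-kB motif in 47.3% and the STAT motif in 8.87%. No STAT match lay in the 4 windows. These matches describe letters only, and binding was not measured.

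The 1-week controls, the 1-week arrays at 0.04 mg/m3 and part of those at 0.08 mg/m3 lay apart from the other arrays, which bears on every 1-week value below. The first principal component of all genes held 63.5% of the variance and placed the 4-week controls at 31.3. The 1-week arrays at 0.04 mg/m3 lay at -76.5 ± 9.7 and the 1-week controls at -58 ± 12.2 (SD, n = 5 each). The 1-week arrays at 0.08 mg/m3 ran from -64.7 to 5.5, those at 0.15 mg/m3 from -3 to 14 and those at 0.60 mg/m3 from -2.5 to 5.6. Of all genes, 73.5% differed between the 4-week and the 1-week controls in limma (adjusted p under 0.05). The 1-week changes of the 5 genes, each by its brightest probe set, are therefore also given against the 4-week controls. At 0.04 mg/m3, and in part at 0.08 mg/m3, the 1-week arrays lay far from the 4-week controls on this component. Those at 0.15 and 0.60 mg/m3 lay nearer, and still wholly below the 4-week controls, which ran from 28.5 to 35.3. All 1-week values against the 4-week controls therefore hold such a distance, and the difference between the times too. Markers of alveolar type 2 cells and of club cells, the secretory cells of small airways, the cells of the labelled tissue, were bright in every group. In bulk tissue such as this, fewer cells of a type and less RNA per cell cannot be told apart.

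Saa3 was low in the lungs of control rats and at the lower concentrations, and high at 0.15 and 0.60 mg/m3, at both times. At 4 weeks its log2 values were 4.29, 4.13, 3.96, 4.23 and 4.43 in the controls, 4.13, 4.48, 4.71, 4.06 and 4.66 at 0.04 mg/m3, and 4.18, 4.09, 4.64, 5.12 and 4.60 at 0.08 mg/m3. They were 7.19, 8.30, 7.72, 6.93 and 7.25 at 0.15 mg/m3 and 8.86, 8.59, 8.93, 7.97 and 9.17 at 0.60 mg/m3. All 10 arrays at the upper concentrations lay above all 15 at the lower concentrations and in the controls, while the arrays at 0.04 and 0.08 mg/m3 overlapped the controls. Saa3 averaged 8.70 ± 0.46 at 0.60 mg/m3 and 4.21 ± 0.17 in the controls (SD, n = 5 each), a change of 4.49 ± 0.30 (SE), or 22.5-fold. At 0.15 mg/m3 it averaged 7.48 ± 0.54, a change of 3.27 ± 0.30, or 9.64-fold. The changes at 0.08 and 0.04 mg/m3 were 0.32 and 0.20, each with the same SE of 0.30. These contrasts had been seen when the genes were chosen, so neither they nor differences built from them carry a test here, and the concentrations of 1 time share their controls. No detection calls came with the values, so whether Saa3, Lcn2 and Orm1 were above background in the controls is not known, and their folds may understate a change.

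At 1 week the Saa3 values were 3.54, 3.63, 3.57, 3.32 and 3.69 in the controls, 4.20, 3.97, 4.70, 3.77 and 4.92 at 0.04 mg/m3, and 4.25, 4.63, 5.30, 5.20 and 5.24 at 0.08 mg/m3. They were 5.59, 7.65, 8.23, 7.26 and 7.48 at 0.15 mg/m3 and 7.95, 8.74, 7.80, 7.42 and 8.48 at 0.60 mg/m3. Every exposed array lay above every 1-week control, at all 4 concentrations, and 1 array at 0.15 mg/m3 lay well below the other 4 of its group. The changes were 0.76, 1.37, 3.69 (12.9-fold) and 4.53 (23.1-fold) with increasing concentration, each ± 0.30 (SE). Against the 4-week controls they were 0.10, 0.71, 3.03 (8.18-fold) and 3.87 (14.6-fold). The values at 0.04 mg/m3 thus depended on which controls were used, and those at 0.15 and 0.60 mg/m3 were over 8-fold with either.

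The concentrations were not evenly spaced in their effect on Saa3. Between 0.08 and 0.15 mg/m3 the level differed by 2.95 at 4 weeks and by 2.32 at 1 week on the log2 scale, and the arrays did not overlap at either time. Between 0.15 and 0.60 mg/m3 it differed by 1.22 at 4 weeks and 0.84 at 1 week, and the arrays of these neighbours overlapped. As a share of the log2 change at 0.60 mg/m3, the change at 0.15 mg/m3 was 72.8% at 4 weeks and 81.5% at 1 week. At 0.08 mg/m3 the share was 7.02% at 4 weeks and 30.3% at 1 week. Saa3 had the second largest increase of all 13438 genes at both 0.15 and 0.60 mg/m3, at each time against the controls of that time.

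**Figure D1:**
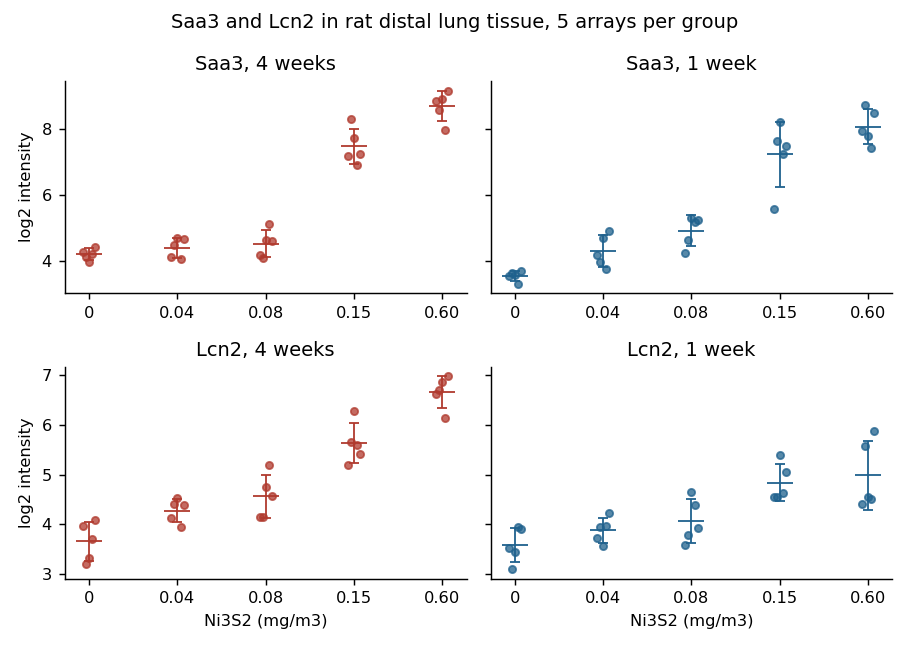
Log2 intensity of Saa3 (top) and Lcn2 (bottom) at 4 weeks (left) and 1 week (right) against the Ni3S2 concentration in mg/m3, 0 being the controls. Points are single arrays, the long bar is the mean and the error bar is the SD over 5 arrays. Saa3 steps up between 0.08 and 0.15 mg/m3 at both times, and Lcn2 at 0.60 mg/m3 averages 6.65 at 4 weeks and 4.98 at 1 week.

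Lcn2 was also low in controls, and its mean was higher at each higher concentration, with a smaller range than Saa3. Its course was smoother than that of Saa3 at 4 weeks only. As a share of the log2 change at 0.60 mg/m3, its changes at 0.08 and 0.15 mg/m3 were 30.2% and 65.8% at 4 weeks. At 1 week these shares were 34.0% and 89.6%, beside 30.3% and 81.5% for Saa3. At 4 weeks its log2 values were 3.97, 3.20, 3.32, 3.71 and 4.08 in the controls, 4.12, 4.40, 4.53, 3.95 and 4.38 at 0.04 mg/m3, and 4.15, 4.15, 4.75, 5.19 and 4.56 at 0.08 mg/m3. They were 5.20, 5.65, 6.27, 5.59 and 5.42 at 0.15 mg/m3 and 6.61, 6.70, 6.85, 6.14 and 6.97 at 0.60 mg/m3. All arrays at 0.08 mg/m3 and above lay over all controls, and at 0.04 mg/m3 4 of 5 did. Lcn2 averaged 6.65 ± 0.32 at 0.60 mg/m3 and 3.66 ± 0.39 in the controls (SD, n = 5 each), a change of 3.0 ± 0.25 (SE), or 7.98-fold. The changes at 0.04, 0.08 and 0.15 mg/m3 were 0.62, 0.91 (1.87-fold) and 1.97 (3.92-fold). Its increase ranked 9th of all genes at both 0.15 and 0.60 mg/m3 of 4 weeks, and 433rd and 291st at these concentrations of 1 week.

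At 1 week the Lcn2 values were 3.53, 3.10, 3.45, 3.94 and 3.91 in the controls, 3.72, 3.94, 3.56, 3.97 and 4.22 at 0.04 mg/m3, and 3.59, 3.78, 4.65, 4.38 and 3.92 at 0.08 mg/m3. They were 4.55, 4.55, 5.39, 4.63 and 5.06 at 0.15 mg/m3 and 4.41, 5.58, 4.54, 4.50 and 5.88 at 0.60 mg/m3. Only the arrays at 0.15 and 0.60 mg/m3 lay wholly above the controls, and at 0.60 mg/m3 they fell into 3 arrays near 4.5 and 2 above 5.5. The changes were 0.30, 0.47, 1.25 (2.38-fold) and 1.39 (2.63-fold) with increasing concentration, each ± 0.25 (SE). Against the 4-week controls they were 0.23, 0.41, 1.18 and 1.33, which differ little from these because the controls of both times had similar Lcn2 levels. No neighbouring pair of concentrations was free of overlap at 1 week. At 4 weeks 0.15 and 0.08 mg/m3 were separate, with a difference of 1.07, and 0.60 and 0.15 mg/m3 overlapped, with a difference of 1.02.

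The change of Lcn2 at 0.60 mg/m3 was larger at 4 weeks than at 1 week by 1.60 ± 0.35 on the log2 scale (SE, 5 arrays in each of the 4 groups). All 5 arrays at 4 weeks, from 6.14 to 6.97, lay above all 5 at 1 week, from 4.41 to 5.88. The 4-week and 1-week controls differed by 0.07 ± 0.25 (adjusted p = 0.817). For Saa3 the difference between the changes at 0.60 mg/m3 was -0.04 ± 0.43 (SE), and the 2 genes were not tested against each other. These differences are built from the changes that were in view when the genes were chosen, so they are descriptions. Of all genes, 56.7% had a called difference between the changes at 0.60 mg/m3, 27.7% in the direction of Lcn2, and 12%, 44.4% and 56.8% had one at the lower concentrations in increasing order. That share is read with the position of the 1-week controls in mind, since they enter each such difference.

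At the other concentrations the 4-week minus 1-week difference of Lcn2 was 0.32 at 0.04 mg/m3, 0.43 at 0.08 mg/m3 and 0.72 at 0.15 mg/m3, each ± 0.35 (SE). For Saa3 it was -0.56, -1.06 and -0.42 at the same concentrations, each ± 0.43. The value of Saa3 at 0.08 mg/m3 came from levels of 4.52 at 4 weeks and 4.92 at 1 week, which overlapped, and from controls of 4.21 at 4 weeks and 3.55 at 1 week, which did not. On leaving out 1 array it lay between -1.23 and -0.95. At 0.15 mg/m3 it was -0.84 without replicate 1 of 1 week, -0.17 without replicate 3 of 1 week and -0.88 with array weights, which count noisier arrays less. The 4-week controls were above the 1-week controls in Saa3 by 0.66 ± 0.30 (adjusted p = 0.048), a call that 9 of the 10 omissions of 1 control array ended.

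Hp was among the brightest genes of the tissue, brighter than 95.1% of all genes, and its level moved by a small amount. At 4 weeks it was 10.05, 10.26, 10.41, 10.41 and 10.22 in the controls, 10.31, 10.30, 10.06, 9.90 and 10.11 at 0.04 mg/m3, and between 9.74 and 10.16 at 0.08 mg/m3, with a median of 10.12. It was 10.42, 10.44, 10.55, 10.47 and 10.56 at 0.15 mg/m3 and 10.54, 10.44, 10.51, 10.50 and 10.40 at 0.60 mg/m3. The arrays at 0.15 mg/m3 lay above all controls by a narrow margin, those at 0.60 mg/m3 overlapped them in 1 array, and all arrays at both upper concentrations lay above those at the lower ones. The changes against control were -0.13, -0.24, 0.22 and 0.21 with increasing concentration, each ± 0.11 (SE). At 1 week they were 0.21, 0.21, 0.21 and 0.33, and every 1-week group overlapped its controls.

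The unexposed level of Hp differed between the times, at 10.27 ± 0.15 in the 4-week controls and 10.63 ± 0.13 in the 1-week controls (SD, n = 5 each). The difference was -0.36 (limma, adjusted p = 0.00305). Its 1-week changes against the 4-week controls were correspondingly larger, from 0.57 at 0.04 mg/m3 to 0.69 at 0.60 mg/m3. The 4-week minus 1-week difference of the Hp change was -0.45 at 0.08 mg/m3, and -0.27 with array weights.

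Orm1 was dim, with only 10.5% of genes dimmer, and its arrays lay wholly above the controls at 0.15 and 0.60 mg/m3 of 4 weeks and in no other group. Its 4-week values were 3.20, 3.16, 3.10, 2.96 and 2.92 in the controls, 3.37, 4.40, 3.94, 3.31 and 3.21 at 0.15 mg/m3, and 3.50, 3.73, 3.62, 3.40 and 4.30 at 0.60 mg/m3. All 10 exposed arrays lay above all 5 controls, with single arrays reaching 4.40 and 4.30. The changes were 0.11, 0.15, 0.58 (1.49-fold) and 0.64 (1.56-fold) with increasing concentration, each ± 0.15 (SE). At 1 week all groups overlapped, with means of 3.22 in the controls, 3.16 at 0.04 mg/m3, 3.34 at 0.08 mg/m3, 3.16 at 0.15 mg/m3 and 3.32 at 0.60 mg/m3. Against the 4-week controls the 1-week changes were 0.09, 0.27, 0.09 and 0.25 with increasing concentration.

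The Orm1 change was larger at 4 weeks than at 1 week by 0.64 at 0.15 mg/m3 and by 0.55 ± 0.21 (SE) at 0.60 mg/m3. On leaving out 1 array these differences lay between 0.45 and 0.75 and between 0.40 and 0.63. The controls of the 2 times differed by -0.16 (limma, adjusted p = 0.355).

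**Figure D2:**
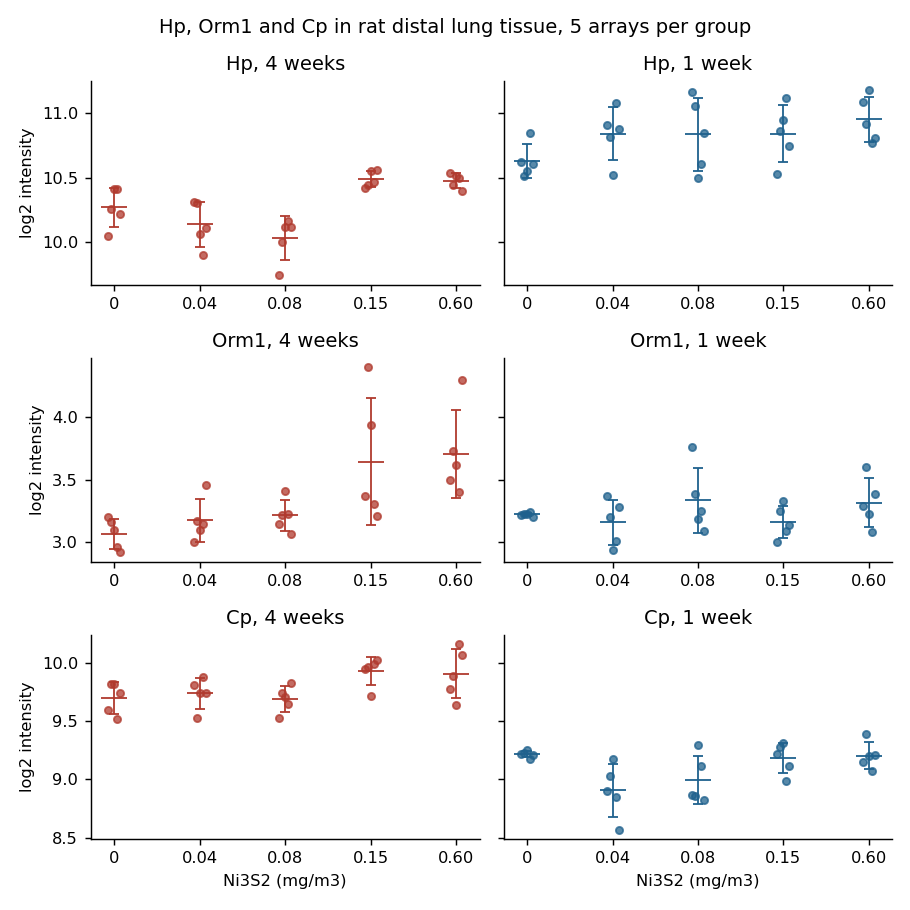
Log2 intensity of Hp, Orm1 and Cp at 4 weeks (left) and 1 week (right) against the Ni3S2 concentration in mg/m3, with single arrays as points, the mean as a long bar and the SD over 5 arrays as the error bar. Each row has its own axis, and the largest of the changes against control is 0.64 for Orm1 at 4 weeks.

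Cp was bright and changed little in its brightest probe set, while both of its other probe sets moved more. The brightest set averaged 9.91 ± 0.21 at 0.60 mg/m3 and 9.70 ± 0.13 in the controls at 4 weeks, and 9.21 ± 0.12 at 0.60 mg/m3 and 9.22 ± 0.03 in the controls at 1 week (SD, n = 5 each). Its 4-week changes were 0.04, -0.01, 0.23 and 0.21 with increasing concentration, each ± 0.10 (SE), and all 4 groups overlapped the controls. At 1 week the changes were -0.31, -0.22, -0.03 and -0.01, and all 5 arrays at 0.04 mg/m3 lay below the controls. The 4-week controls were above the 1-week controls by 0.48 (limma, adjusted p = 2.09e-05), so against the 4-week controls the 1-week changes were -0.79, -0.70, -0.51 and -0.49.

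The dimmest of the 3 probe sets of Cp lay below the 4-week controls at 0.04 mg/m3, above them at 0.15 mg/m3, and overlapped them at 0.08 and 0.60 mg/m3. Its 4-week values were 8.73, 9.39, 9.26, 8.98 and 9.22 in the controls, 8.60, 8.56, 8.34, 8.57 and 8.66 at 0.04 mg/m3, and 8.82, 8.44, 8.74, 8.22 and 9.10 at 0.08 mg/m3. They were 9.77, 9.58, 9.57, 9.72 and 9.97 at 0.15 mg/m3 and 9.63, 9.90, 9.39, 9.96 and 9.82 at 0.60 mg/m3. All arrays at 0.04 mg/m3 lay below all controls, and all at 0.15 mg/m3 lay above them. Its changes were -0.57, -0.45, 0.60 and 0.62 with increasing concentration at 4 weeks. At 1 week they were -0.34, -0.72, -0.71 and -0.52 against the 1-week controls, and they were not computed against the 4-week controls. The second brightest set had changes of -0.07, -0.08, 0.40 and 0.37 at 4 weeks, and all its arrays at 0.15 mg/m3 lay above all controls. At 1 week its changes were -0.35, -0.23, -0.12 and -0.09 against the 1-week controls. The platform table gives the brighter sets 1 sequence record and the dimmest set another. Ceruloplasmin is known to be made in a secreted and a membrane-anchored form by alternative splicing, and which form each set reads was not tested.

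**Figure D3:**
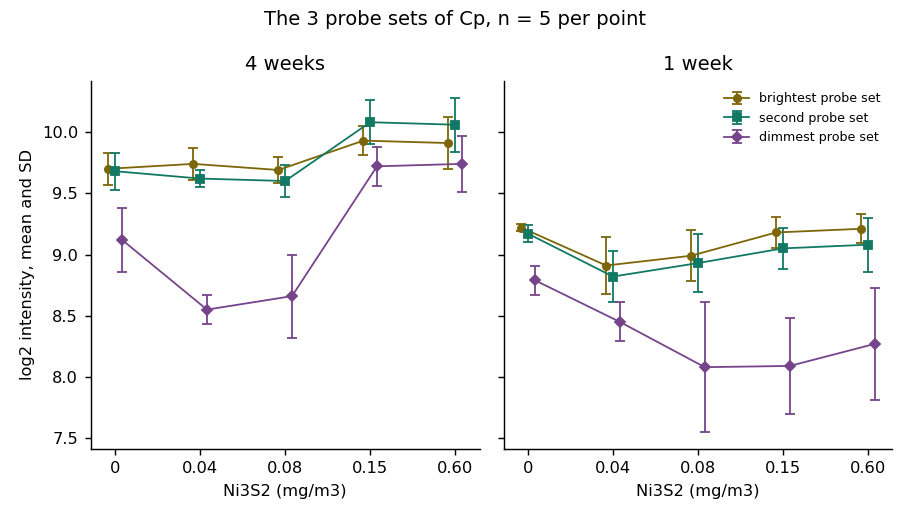
Mean log2 intensity of the 3 Cp probe sets at 4 weeks (left) and 1 week (right) against the Ni3S2 concentration in mg/m3, with the SD over 5 arrays as error bars. The dimmest set (diamonds) spans from 8.55 at 0.04 mg/m3 to 9.74 at 0.60 mg/m3 at 4 weeks, a wider span than the other sets.

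By the same rule that was applied to all genes, an adjusted p under 0.05 in limma, 3 of the 5 genes were called higher at 0.60 mg/m3 of 4 weeks, where 9.47% of all genes were. At 0.15 mg/m3 of 4 weeks 3 were called higher, with 1.92% of all genes, at 0.08 mg/m3 1 was, with 5.67%, and at 0.04 mg/m3 none of the 5 was, with 8.29%. At 1 week the counts called higher were 0, 1, 2 and 3 with increasing concentration, with 15.1%, 25.1%, 33.8% and 32.8% of all genes. Cp was called lower at 0.04 mg/m3 of 1 week, with 11.8% of all genes. All 5 exposed arrays lay above all 5 controls in 3.99% of all genes at 0.08 mg/m3 of 4 weeks, in 4.61% at 0.15 mg/m3 and in 10.5% at 0.60 mg/m3. At 1 week these shares were 6.69%, 8.89%, 28% and 27.3% with increasing concentration, and at 0.04 mg/m3 all exposed arrays lay below the controls in 4.67%. Nothing is read from these counts, because the genes were chosen for such changes.

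At 4 weeks, animals of 1 group that were high in Saa3 were also high in Lcn2, and at 1 week this relation did not pass the adjustment. For each gene the mean of the group was subtracted from each array, which removed the differences between group means. The deviations were compared over the 25 arrays of a time. Such deviations were not what the genes were chosen by. At 4 weeks Pearson's r was 0.74 (permutation within groups, p = 0.00029, adjusted p = 0.0058) and Spearman's rho was 0.79 (p = 2e-05, adjusted p = 0.0004), adjusted over 20 relations. Without the 2 arrays farthest from the median in Saa3, r was 0.81, and r was positive in 5 of 5 groups. At 1 week r was 0.54 (permutation p = 0.00855, adjusted p = 0.057) and rho was 0.52 (p = 0.0171, adjusted p = 0.0855), and r was positive in 4 of 5 groups. Of all genes, Saa3 itself included, 0.0446% had a higher r with Saa3 than Lcn2 had at 4 weeks, and 1.73% at 1 week. The array at 0.60 mg/m3 with the lowest Saa3 at 4 weeks, 7.97, also had the lowest Lcn2, 6.14.

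Saa3 and Orm1 were also related at 4 weeks by Pearson's r, 0.68 (permutation p = 0.00309, adjusted p = 0.0309), and not after adjustment by Spearman's rho, 0.55 (p = 0.0161, adjusted p = 0.0855). Without the 2 arrays farthest in Saa3, r fell to 0.52. With all arrays, 0.201% of all genes, Saa3 itself included, had a higher r with Saa3 than Orm1 had. No other relation among the 5 genes passed the adjustment at either time. Of the others, Hp and Cp at 1 week had the largest r, -0.56 (permutation p = 0.0198, adjusted p = 0.099).

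**Figure D4:**
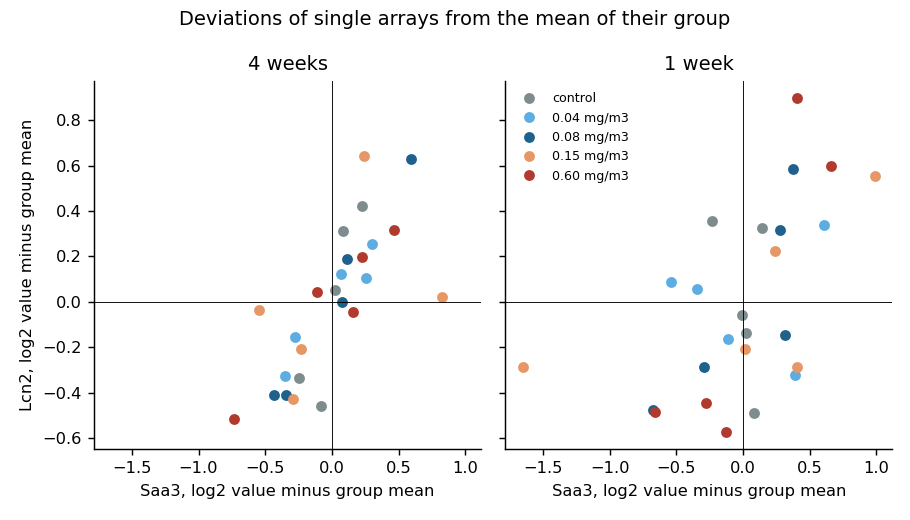
Deviation of each array from the mean of its group in Lcn2 (vertical) against that in Saa3 (horizontal), both on the log2 scale, at 4 weeks (left) and 1 week (right). Each point is 1 of 25 arrays and the colour is its concentration. At 4 weeks r is 0.74 and at 1 week r is 0.54.

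Over all 50 arrays, the genes whose levels followed Saa3 most closely were Retnla (r = 0.968), Spp1 (0.94), Sod2 (0.934), Cxcl2 (0.933) and Slc26a4 (0.929). Retnla encodes a secreted resistin-like protein, Spp1 osteopontin, Sod2 the mitochondrial superoxide dismutase, Cxcl2 a chemokine that attracts neutrophils, and Slc26a4 the anion exchanger pendrin. For Lcn2 they were Slc26a4 (r = 0.944), Mmp12 (0.901), Spp1 (0.893), Ms4a6a (0.874) and Txnrd3 (0.87), where Mmp12 is macrophage elastase and Txnrd3 a thioredoxin reductase. Slc26a4 and Spp1 were on both lists. Within the 4-week arrays alone the values were 0.976 for Retnla with Saa3 and 0.974 for Slc26a4 with Lcn2, and within the 1-week arrays 0.984 and 0.866. Saa3 and Lcn2 themselves had r = 0.86 over 50 arrays, 0.95 at 4 weeks and 0.86 at 1 week. These values are descriptions over arrays that share the exposure, and carry no test.

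Saa3, Lcn2 and the gene and marker lists below were chosen with earlier results of these data in view. Counts in the lists are therefore descriptions, and nothing is read from the place of Saa3 and Lcn2 above other genes. At 0.60 mg/m3 of 4 weeks the other genes whose proteins the liver adds to plasma in the acute phase changed less than Saa3 and Lcn2. Of 20 such genes measured (the 5 genes above not counted), 5 rose and 0 fell at 0.60 mg/m3 of 4 weeks, with a median change of 0.07, against 9.47% higher and 7.9% lower among all genes and a median of 0. The protease inhibitor A2m rose by 1.16 ± 0.37 (SE; limma, adjusted p = 0.0207), the complement genes C3 by 0.65 ± 0.08 (8.8e-08) and Cfb by 0.61 ± 0.06 (1.07e-10), and the fibrinogen chain Fgg by 0.60 ± 0.21 (0.0396). The count was 2 without replicate 5 at 0.60 mg/m3 or without control replicate 3, and 3 without replicate 4 at 0.60 mg/m3 or without control replicate 2. Of 8 plasma proteins that fall in the acute phase, 0 were called in limma at 0.60 mg/m3 of 4 weeks (1 at an unadjusted p under 0.05), and Alb, albumin, changed by -0.02 ± 0.14. With array weights 2 of the 8 were called.

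At the lower concentrations of 4 weeks A2m changed more than at 0.60 mg/m3, by 2.39 ± 0.37 at 0.04 mg/m3 (limma, adjusted p = 1.95e-05) and 1.82 ± 0.37 at 0.08 mg/m3 (0.00106). Hamp, which encodes the iron hormone hepcidin, rose by 2.19 ± 0.47 at 0.04 mg/m3 (adjusted p = 0.00128). In limma 9 of 9 heart muscle markers measured were also higher at 0.04 mg/m3, where 8.29% of all genes were. Their median change was 2.19 there and 1.46 at 0.08 mg/m3. At the higher concentrations, 0.15 and 0.60 mg/m3, none was called (0 of 9 also at an unadjusted p under 0.05). A2m, in contrast, was called higher at 0.60 mg/m3 as well. The mean level of the heart muscle markers per array was 9.87 to 10.44 at 0.04 mg/m3 and 7.37 to 8.61 in the controls. Other marker lists were higher at these concentrations too. At 0.04 and 0.08 mg/m3 the median change was 1.27 and 0.94 for 5 B cell markers, 0.97 and 0.53 for 10 T cell markers, and 0.36 and 0.32 for 10 fibroblast markers. For 6 skeletal muscle markers it was 1.42 and 2.09, with mean levels of up to 8.41 and 11.64 in single arrays against 3.79 to 4.13 in the controls. The part of these cell types in the A2m and Hamp changes was not tested. Of 14 liver cell markers measured, limma called 0 at any concentration of 4 weeks (0 or 1 at an unadjusted p under 0.05). Their mean level was 3.51 to 3.54 at 0.60 mg/m3 and 3.47 to 3.63 in the controls. Alb and Apoa1 were near the dimmest genes, brighter than 12.6% and 1.5% of all genes. F2 and Cyp2e1 were the brightest of the 14, above 32.3% and 40.2% of all genes.

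At 1 week the acute-phase list held 6 higher and 5 lower genes of 20 at 0.60 mg/m3 against the 1-week controls, and 10 higher and 0 lower against the 4-week controls. Among all genes 32.8% were higher and 32.3% lower with the 1-week controls, and 33.3% and 16.1% with the 4-week controls. Fgg changed by 1.77 against the 1-week controls and by -0.43 against the 4-week controls. C3 was higher with either, by 1.14 and 0.36, and so was Hamp, by 1.41 and 1.17. The median change of the 9 heart muscle markers was 1.48 against the 1-week controls and 0.26 against the 4-week controls. Their mean level per array was 7.92 to 8.85 at 0.60 mg/m3 of 1 week and 4.82 to 8.59 in the 1-week controls, and their part in the Hamp change was not tested.

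Genes of the pathways that drive the acute phase were called at 0.60 mg/m3 of 4 weeks in part. In the interleukin 1, TNF and IL-17 to NF-kB list 8 of 24 measured genes rose and 1 fell, against 9.47% higher and 7.9% lower among all genes, with a median change of 0.12. The decoy receptor Il1r2 rose by 1.51 ± 0.19 (limma, adjusted p = 7.07e-08), Tnf by 1.06 ± 0.17 (4.17e-06), the TNF receptor Tnfrsf1b by 0.95 ± 0.14 (2.22e-06) and Nfkbiz, a nuclear cofactor of NF-kB at Lcn2 and other promoters in mice, by 0.85 ± 0.10 (1.43e-08). The 1 gene that fell was Nfkbia, an inhibitor of NF-kB, at -0.51 ± 0.10 (0.000269). In the interleukin 6 and STAT3 list 4 of 21 rose and 1 fell, with the same shares among all genes and a median of 0.10. Bcl3 rose by 1.05 ± 0.16 (2.31e-06) and the transcription factor Junb by 0.83 ± 0.12 (1.1e-06), and the kinases Jak2 and Tyk2 by 0.48 and 0.43. Il6 itself changed by 0.08 ± 0.11 (0.707). The second list held 3 called genes without control replicate 3, and 10 with array weights. Nfkbia and Il6 were named after their values had been seen.

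At 1 week and 0.60 mg/m3 the NF-kB list held 8 higher and 11 lower genes against the 1-week controls, and 14 higher and 3 lower against the 4-week controls. Among all genes these shares were 32.8% and 32.3%, and 33.3% and 16.1%. Il1r2 was higher with both, by 1.82 and 1.36, while Nfkb2 changed by -1.38 with the 1-week controls and by 0.81 with the 4-week controls. The STAT3 list held 3 higher and 13 lower against the 1-week controls, and 8 higher and 4 lower against the 4-week controls. Of its members Cebpd, a C/EBP factor, was lower with both, by -1.66 and -0.57 on the log2 scale, and Cebpb changed by -1.37 and 0.09.

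Among receptors and partners of the 5 proteins, 6 of 13 measured rose and 0 fell at 0.60 mg/m3 of 4 weeks, against 9.47% higher and 7.9% lower among all genes, with a median of 0.06. Hmox1, which breaks down haem, rose by 1.39 ± 0.12 (limma, adjusted p = 7.56e-12). The endocytic receptor megalin, Lrp2, which takes up lipocalin 2, rose by 0.68 ± 0.19 (0.00967), and Cd163, the receptor for haptoglobin bound to haemoglobin, by 0.59 ± 0.21 (0.0424). Tlr2, a receptor reported to respond to serum amyloid A, rose by 0.52 ± 0.14 (0.00476). Slc22a17, a receptor for lipocalin 2, changed by -0.15 ± 0.13 (0.466). At 1 week Slc22a17 and Lrp2 depended on the controls: Slc22a17 changed by -1.39 against the 1-week and 0.27 against the 4-week controls, and Lrp2 by 1.40 and -0.35.

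Genes of iron transport and storage, in which lipocalin 2, ceruloplasmin and hepcidin act, held 3 higher and 1 lower of 16 at 0.60 mg/m3 of 4 weeks. Among all genes 9.47% were higher and 7.9% lower, and the median change of the list was 0.11. The ferric reductases Cybrd1 and Steap4 rose by 0.87 ± 0.12 (limma, adjusted p = 2.78e-07) and 0.67 ± 0.17 (0.00307), and the transferrin receptor Tfrc by 0.62 ± 0.13 (0.000593). Fech, which inserts iron into haem, fell by 0.38 on the log2 scale (0.00737). At 1 week 9 were higher and 2 lower against the 1-week controls, and 8 higher and 3 lower against the 4-week controls, where 32.8% and 32.3%, and 33.3% and 16.1%, of all genes were. Steap1 was higher with both, by 2.06 and 1.44.

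Secreted defence proteins of the airway held the largest share of called genes among the 7 lists at 0.60 mg/m3 of 4 weeks, with 8 of 14 higher and 1 lower, against 9.47% and 7.9% of all genes, and a median change of 0.39. The lists were chosen with earlier results of these data known, so their order is a description. The mucin Muc5b rose by 1.93 ± 0.29 (limma, adjusted p = 2.8e-06), the chitinase-like Chi3l1 by 1.20 ± 0.13 (6.33e-10), S100a9 by 1.05 ± 0.21 (0.00029) and Bpifb1 by 0.96 ± 0.21 (0.000877). The 1 that fell was Bpifa1, by 0.46 on the log2 scale, named after its value had been seen. At 0.15 mg/m3 2 of the 14 were called, both higher, where 1.92% of all genes were. At 1 week and 0.60 mg/m3 9 were higher and 0 lower, or 6 and 0 against the 4-week controls, where 32.8% and 33.3% of all genes were higher. Muc5b changed by 1.83 and 2.23 with these controls.

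**Figure D5:**
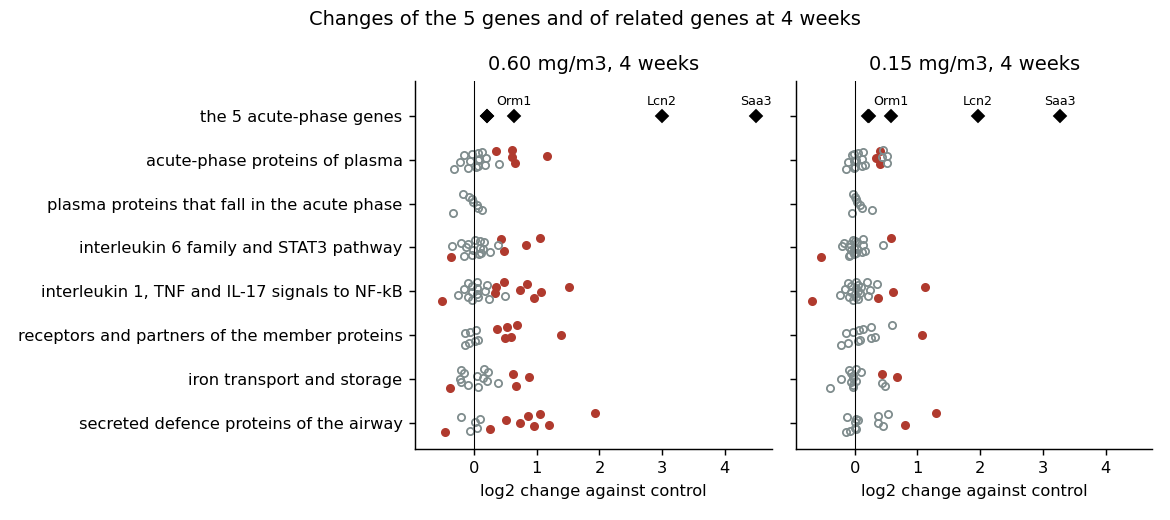
Log2 change against control at 4 weeks for 0.60 mg/m3 (left) and 0.15 mg/m3 (right), for the 5 genes (diamonds, top row) and for the genes of the 7 lists (circles, 1 row per list). Filled circles are called genes (adjusted p under 0.05), and the 2 unlabelled diamonds that lie together near 0.2 are Hp and Cp. Saa3 and Lcn2, which were chosen with these changes in view, lie to the right of every gene of the lists in both panels.

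Neutrophils store lipocalin 2 and haptoglobin, so their markers are given beside these genes. Of 9 neutrophil markers measured, 4 were higher and 1 lower at 0.60 mg/m3 of 4 weeks, against 9.47% and 7.9% of all genes, with a median change of 0.34, and 1 was higher at 0.15 mg/m3. Il1r2, S100a8 and S100a9, which stand in the lists above too, made up 3 of the 4, and Mmp8, a collagenase of neutrophil granules, was the other, at 0.34 ± 0.08 (limma, adjusted p = 0.00346). Cxcr1, a chemokine receptor, fell by 1.39 on the log2 scale (2.7e-05). The mean level of the 9 per array was 5.74 to 6.03 at 0.60 mg/m3 and 5.35 to 5.94 in the controls at 4 weeks, and 5.61 to 6.03 at 0.60 mg/m3 and 4.76 to 5.38 in the controls at 1 week. Of 10 markers of monocytes and interstitial macrophages 6 were higher and 0 lower at 0.60 mg/m3 of 4 weeks, with levels of 7.50 to 8.00 and, in the controls, 7.13 to 7.48. Of 9 club cell markers 0 were higher and 6 lower, with levels of 10.42 to 10.57 at 0.60 mg/m3 and 11.22 to 11.54 in the controls. The monocyte count was 4 without control replicate 3 or replicate 5 at 0.60 mg/m3. Of 10 T cell markers 6 were higher and 0 lower, with levels of 6.37 to 7.06 at 0.60 mg/m3 and 5.91 to 6.22 in the controls. Of 11 alveolar type 2 cell markers 7 were higher and 2 lower, with levels of 11.49 to 11.71 and, in the controls, 11.30 to 11.47. On leaving out any 1 array of these groups the higher count was between 2 and 5, so 7 was not reached in any such fit. Of 8 endothelial markers 0 were higher and 4 lower, with levels of 9.54 to 9.77 at 0.60 mg/m3 and 9.77 to 10.18 in the controls, and 2 were lower without control replicate 1, 4 or 5 or replicate 1 or 2 at 0.60 mg/m3. Of 7 alveolar macrophage markers 1 was higher and 2 lower, with levels of 8.37 to 8.71 and, in the controls, 8.44 to 8.71. Of 3 erythroid cell markers 0 were higher and 3 lower, with levels of 4.31 to 4.66 at 0.60 mg/m3 and 4.83 to 5.49 in the controls. The lower count was 1 without control replicate 4 or 5 or replicate 5 at 0.60 mg/m3. The part of these cell types in the changes of Saa3, Lcn2 and Fech was not tested.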

How the data were processed

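RNA from 50 rats was measured on Affymetrix HT rat arrays, 10 groups of 5 arrays. The deposited values are log2 intensities, which the authors made with RMA in Partek, per the submitters' processing notes. Software versions, dates of scanning and the set of arrays normalised in 1 run were not stated in what was available here. There were 31042 probe sets, their values lay between 2.22 and 13.8, and the medians of single arrays between 5.25 and 5.61. A gene symbol came from the platform table: 19063 probe sets had 1 symbol, 572 had several and 11407 had none. The brightest probe set stood for each of 13438 genes, of which 3985 had several.

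Each array's group came from its label. A linear model with 1 mean per group over all 50 arrays was fitted in limma 3.58.1 (R 4.3.3, eBayes), with Benjamini-Hochberg adjustment over all genes and two-sided tests. Calls required an adjusted p below 0.05. Standard errors of the 5 genes come from this model. Changes against control of the 5 genes are descriptions, since the genes, the 7 gene lists and the 15 marker lists were chosen with earlier results of these data known. Their differences between the times were planned as tests and are given without p-values, because they are built from those changes. Nothing in the labels except separate animals sets the samples apart, and no batch is named. No arrays were duplicates: the closest pair differed in 31031 probe sets. Replicate numbers do not pair the animals: over 225 pairs of arrays with the same number in different groups the mean correlation of deviations was -0.001. The fit was tested on simulated data.

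From each pathway list up to 4 called genes with the largest change at 0.60 mg/m3 at each time were named, and genes named beyond this rule were chosen after their values were seen: Nfkbia, Il6, Slc22a17 at 4 weeks, Bpifa1, the markers, and the second mentions of A2m and Hamp at lower concentrations. The 5 genes most like Saa3 and Lcn2 were taken by Pearson's r, symbols starting LOC or RGD left out. Relations within groups used 100000 permutations within groups. Promoter sequences are RefSeq's (GRCr8). The alternatives were array weights, a filter on the dimmest 25% of genes, centring on the median, quantile normalisation, an intensity trend, the mean of all probe sets, a replicate block, fits on the compared arrays only, other controls, an adjusted p under 0.01, and leaving out each array.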

Additional observations from a re-analysis of the deposited data

Results flagged for a closer look

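The change of Lcn2 at 0.60 mg/m3 differed between the times by 1.60 (4 weeks minus 1 week), with all 5 arrays at 4 weeks above all 5 at 1 week. For Orm1 the same difference was 0.64 at 0.15 mg/m3 and 0.55 at 0.60 mg/m3, with arrays of the 2 times overlapping at both concentrations. For Saa3 it was -1.06 at 0.08 mg/m3, and for Hp -0.45 at 0.08 mg/m3. These are the 5 of 20 differences among the 5 genes that passed limma's adjusted p under 0.05. The call for Saa3 did not hold in 11 omissions of 1 array, and that for Orm1 at 0.60 mg/m3 did not in 2. The call for Hp did not hold under every alternative. All these differences are built from the changes that were in view when the genes were chosen, so passing supports nothing about the genes. Among all genes 12%, 44.4%, 56.8% and 56.7% had a called difference, with increasing concentration.

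In Cp at 0.15 mg/m3 of 4 weeks replicate 3, at 9.72, lay apart from the other 4 arrays of its group, which ran from 9.95 to 10.03. The gap was 0.74 of the range of the group, above the critical 0.71 of Dixon's test. This was 1 of 50 groups tested, and chance alone flags about 1 in 20.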

How the results depend on the processing

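The changes of Saa3 and Lcn2 at 0.60 mg/m3 of 4 weeks were recomputed under each alternative, as were the list counts and the differences between the times. These changes of Saa3 and Lcn2, and the called differences between the times of the 5 genes, kept their sign. Genes of the lists did not all do so at 1 week with the other controls, as given above for Fgg, Nfkb2 and Lrp2. With the replicate number as a block, Lcn2 had a difference between the times of 1.60 at 0.60 mg/m3 and the acute-phase list 5 called genes, and the numbers do not pair the animals. With 4-week controls in place of 1-week controls the change of Saa3 at 0.60 mg/m3 of 1 week was 3.87 in place of 4.53. At an adjusted p under 0.01 the called genes at 0.60 mg/m3 of 4 weeks were 2 in the acute-phase list, 3 in the interleukin 6 list and 3 in the receptor list, in place of 5, 5 and 6. Centring on the median left 3 in the acute-phase list. Array weights gave 10 in the interleukin 6 list and 2 among the plasma proteins that fall, and fits on the compared arrays only gave 9 and 1. Leaving out 1 array at a time gave 4.38 to 4.68 for Saa3 and 2.88 to 3.13 for Lcn2 at 0.60 mg/m3 of 4 weeks, 4.36 to 4.69 and 1.17 to 1.54 at 1 week, and -0.20 to 0.15 and 1.46 to 1.83 for their differences between the times. Called genes ran from 2 to 5 in the acute-phase list, 0 to 0 among the proteins that fall, 3 to 7 in the interleukin 6 list, 8 to 9 in the NF-kB list, 5 to 6 in the receptor list, 4 to 4 in the iron list and 6 to 8 in the defence list. The mean of its 3 probe sets gave Cp a difference between the times of 0.70 at 0.15 mg/m3 and 0.61 at 0.60 mg/m3, against 0.27 and 0.22 for the brightest set. The cause of these shifts was not tested, except that a stricter threshold calls fewer genes by construction. No measure of background came with the values, which limits what the folds of Saa3, Lcn2 and Orm1 show. The filter on dim genes left out Orm1, so it gave no value there.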
